A study of Arabidopsis thaliana with 4 samples.

Results

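Osmotin-like proteins, plant defensins, beta-1,3-glucanases and class III peroxidases are families of proteins that plants secrete into the cell wall space or store in the vacuole. The genes described here are OSM34 (AT4G11650, osmotin-like), PDF1.4 (AT1G19610) and PDF1.2 (AT5G44420), both plant defensins, AT4G16260, a glycosyl hydrolase of the beta-1,3-glucanase family, and AT5G64120 (PRX71), a class III peroxidase. They were taken by gene name, as the probe sets paired with exactly 1 of these genes. That gave 5 probe sets, 1 per gene, among 13513 probe sets paired with 1 gene and 22810 on the array. The genes were chosen by their log2 change between DEX and mock on these same arrays, or, for PDF1.2, with that change known, so their own changes and calls are given below as a description only, with no p.

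The series measured 4 Affymetrix ATH1 arrays, each with RNA of whole Arabidopsis rosettes 46 days old, of the C24 background and carrying an inducible construct for ORS1. ORS1 is a NAC transcription factor known from leaf senescence. In the DEX group (2 arrays) rosettes had been sprayed with 30 µM dexamethasone, the steroid that induces the construct, and in the mock group (2 arrays) with 0.05% ethanol; all were harvested at 5 h. Both groups carried the construct, so that a response to DEX itself and one to ORS1 cannot be told apart. No ethanol content is given for the DEX spray, so a difference in ethanol cannot be told apart from them either. The labels call the arrays biological replicates and do not give the number of plants, so the spread between arrays may be partly technical. The level of ORS1 was not analysed here, because no probe set used was paired with it.

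As background, osmotin-like proteins belong to the PR-5 family, whose members can permeabilise fungal membranes. Defensins are short, cysteine-rich peptides stabilised by disulphide bonds, many of them antifungal, and PDF1.2 is the customary marker of combined jasmonate and ethylene signalling in Arabidopsis leaves. Beta-1,3-glucanases cut a polymer of fungal walls and of plant callose, and class III peroxidases use or produce hydrogen peroxide in the wall, where they cross-link or loosen its polymers. Several such genes are induced by pathogens, by wounding or in ageing leaves.

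Transcripts of 4 of the 5 genes stood 2.32-fold to 3.13-fold higher in DEX rosettes than in mock rosettes. The exception was PDF1.2, whose DEX and mock values overlapped. The values are log2 expression after GCRMA, so that 1 unit is a doubling. All 5 passed a filter on low values (log2 4 on at least 2 arrays) in both groups, the lowest single value being 5.17 (PDF1.2, mock replicate 1). In whole rosettes, a higher level can come from more RNA per cell or from more cells that express the gene, and these cannot be told apart.

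OSM34 measured 7.66 and 7.62 on DEX replicates 1 and 2, against 6.01 and 5.98 on mock replicates 1 and 2. The DEX mean was 7.64 ± 0.029 and the mock mean 5.99 ± 0.025 (SD, n = 2 each), a log2 change of 1.64. Both pairs of arrays lay within 0.041 of each other, and the lower DEX value exceeded the higher mock value by 1.61, the widest separation among the 5 genes. Of the 19883 probe sets tested, OSM34 ranked 11 from the top by its change.

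PDF1.4 measured 7.66 and 7.67 on the DEX arrays, against 5.76 and 6.38 on mock replicates 1 and 2. The means were 7.66 ± 0.0063 in DEX and 6.07 ± 0.44 in mock rosettes (SD, n = 2 each), which is a log2 change of 1.59 or 3.02-fold. The DEX arrays were nearly equal and the mock arrays were not: their gap of 0.62 was wider than the mock gap of 91.8% of tested probe sets. Measured from each mock array alone, the change was 1.91 (replicate 1) or 1.28 (replicate 2), and the groups stayed apart by at least 1.28.

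PDF1.2 measured 5.87 and 5.94 on the DEX arrays, against 5.17 and 5.93 on mock replicates 1 and 2. The group means differed by 0.36, but mock replicate 2 lay between both DEX values. Set against mock replicate 1 alone the change was 0.73, and against mock replicate 2 alone -0.024, so its positive sign rests on the single low array. PDF1.2 has near-identical copies, PDF1.2b and PDF1.2c, and signal shared with them was not tested.

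AT4G16260 measured 9.22 and 9.20 on the DEX arrays, against 7.88 and 8.11 on the mock arrays. Its change of 1.21 was the smallest of the 4 genes without overlap, with means of 9.21 ± 0.014 in DEX and 8.0 ± 0.16 in mock rosettes (SD, n = 2 each). The separation between the lower DEX and the higher mock value was 1.09, or 2.13-fold. Its mock gap of 0.23 was ordinary, close to the median mock gap over all tested probe sets, 0.23.

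AT5G64120 was the gene with the uneven DEX pair, at 8.54 and 9.0 on DEX replicates 1 and 2, against 7.34 and 7.12 on the mock arrays. The DEX gap of 0.45 was wider than that of 96.6% of tested probe sets, whose median DEX gap was 0.12. The means were 8.77 ± 0.32 in DEX and 7.23 ± 0.15 in mock rosettes (SD, n = 2 each), a 2.90-fold difference. Even the lower DEX array stood 2.31-fold above the higher mock array.

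**Figure D1:**
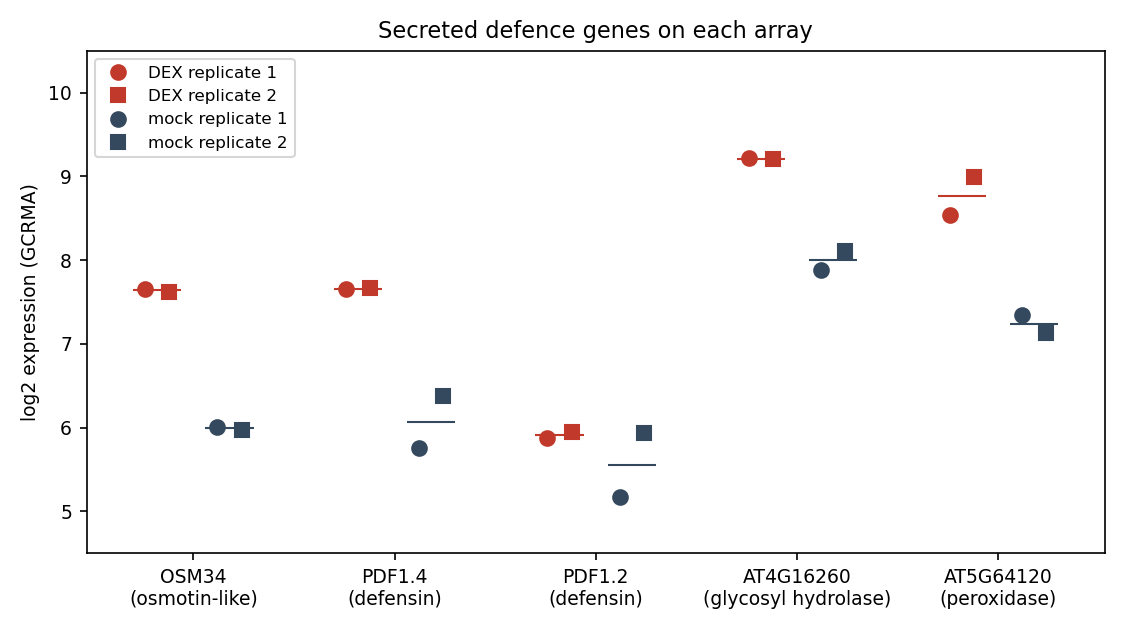
Log2 expression (vertical axis, GCRMA) of the 5 genes on each array, DEX in red and mock in dark blue, with circles for replicate 1, squares for replicate 2 and a line at each pair's mean. The groups are at least 1.09 log2 units apart for OSM34, PDF1.4, AT4G16260 and AT5G64120, and for PDF1.2 mock replicate 2 (5.93) lies between the DEX arrays (5.87 and 5.94).

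By the test used across the array (limma, Benjamini-Hochberg adjusted p under 0.05 over 19883 probe sets), 4 of the 5 genes had been called higher, where 0.246% of all tested probe sets were. The groups did not overlap, DEX being higher, for the same 4 genes and for 18.1% of tested probe sets (19.8% with DEX lower), and they were at least 1 log2 unit apart for those 4 and for 0.211%. Because the genes were picked for this change, the counts test nothing about them and the shares only place them on the array. The calls also depended on the processing. With all 4 arrays kept, that of AT4G16260 was lost with no filter and with quantile normalization, and that of PDF1.4 with no intensity trend. With 1 array left out the calls changed further, those of AT5G64120 and PDF1.2 included, but 1 group then holds a single array. By size of change the order was OSM34, PDF1.4, AT5G64120, AT4G16260 and PDF1.2. The first 3 differed by at most 0.11, less than the spread of the PDF1.4 mock pair or the AT5G64120 DEX pair, so their order is not resolved.

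The mock arrays differed from each other along gene length, which bears on the short defensin genes. With the nuclear genes paired with a tested probe set in 5 equal groups by gene length (RefSeq start to end, introns included), the median of mock replicate 1 minus mock replicate 2 was -0.25 in the shortest group (up to 1366 bp) and 0.27 in the longest, while that of DEX replicate 1 minus DEX replicate 2 was 0.027 and 0.012. In the shortest group 87.4% of genes were lower on mock replicate 1 than on mock replicate 2, and 71.9% had a positive DEX-minus-mock change, against 47.1% of all tested probe sets. PDF1.2 (671 bp) and PDF1.4 (734 bp) belong to that group, and their mock differences of -0.76 and -0.62 went the same way and further. OSM34 (1373 bp), AT4G16260 (1672 bp) and AT5G64120 (1751 bp) fell in the next group, with mock differences of 0.035, -0.23 and 0.22 around a group median of -0.13.

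**Figure D2:**
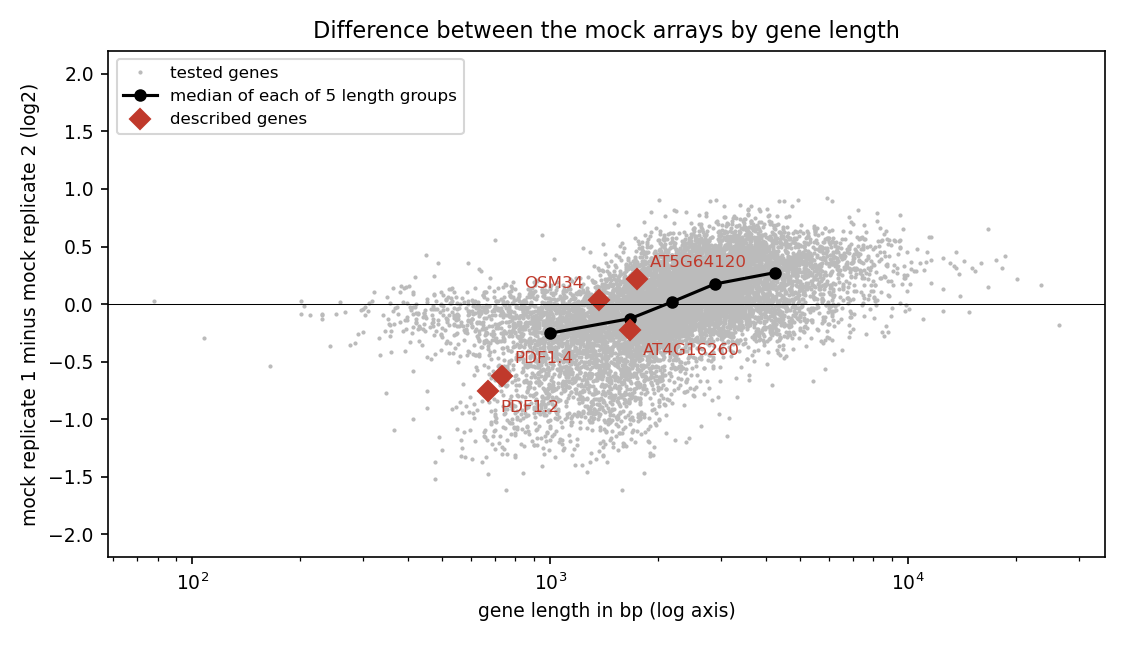
Mock replicate 1 minus mock replicate 2 (vertical axis, log2) against annotated gene length (horizontal log axis, bp) for tested nuclear genes in grey, with the median of each of the 5 length groups in black and the 5 described genes in red. The medians run from -0.25 to 0.27, and PDF1.2 (-0.76) and PDF1.4 (-0.62) lie below the median of the shortest group.

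When a smooth trend with gene length was taken out of every array, PDF1.4 had 7.55 and 7.59 on the DEX arrays, against 6.04 and 6.28 on the mock arrays, a change of 1.41 in place of 1.59. PDF1.2 then had a change of 0.16, with 5.76 and 5.86 on the DEX arrays and 5.46 and 5.84 on the mock arrays, still overlapping. OSM34, AT5G64120 and AT4G16260 had changes of 1.52, 1.47 and 1.13. The 4 genes that did not overlap as deposited thus remained at least 1.07 apart after this step. It did not narrow every mock pair. Mock replicate 1 minus mock replicate 2 became 0.30 for OSM34 (0.035 as deposited) and 0.36 for AT5G64120 (0.22), both wider. For AT4G16260 it became -0.056 (-0.23 as deposited). How the length trend arose was not tested.

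**Figure D3:**
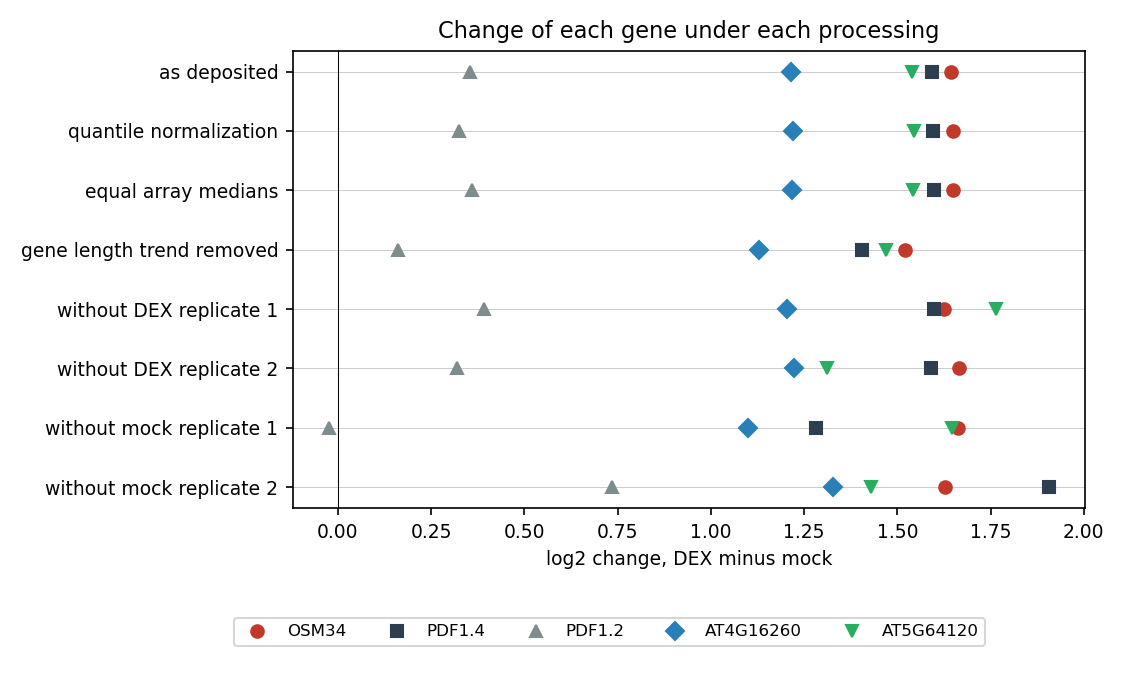
Log2 change, DEX minus mock (horizontal axis), of each of the 5 genes under the deposited values, 3 other normalizations and with each array left out (rows). OSM34 stays between 1.52 and 1.67, AT5G64120 moves most with the DEX arrays (1.31 to 1.76), PDF1.4 with the mock arrays (1.28 to 1.91), and PDF1.2 reaches -0.024 without mock replicate 1.

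Each gene was then set beside the rest of its family, listed by locus from general knowledge, with p-values adjusted over all 19883 probe sets. None of the relatives in the 4 families passed in either direction by limma. Of all tested probe sets 0.448% did, so that none passing is near the background. At an unadjusted p under 0.05, 2 of 17 osmotin-like relatives, 0 of 6 defensins, 2 of 34 glucanase-family genes and 5 of 39 peroxidases were reached, against 8.78% of all tested probe sets.

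Of 24 osmotin and thaumatin-like genes, 18 were tested, OSM34 included. The other 17 had a median log2 change of -0.038, with 8 positive and 9 negative, beside a median of -0.012 over all tested probe sets. The largest positive value was that of AT1G73620, a thaumatin-like gene, at 8.30 and 8.14 in DEX and 7.64 and 7.86 in mock rosettes, a change of 0.47 (SE 0.19; limma adjusted p = 0.531). AT1G75800 lay at the other end, at 9.14 and 9.76 in DEX and 10.2 and 9.94 in mock rosettes (-0.62; limma adjusted p = 0.526), and AT5G24620 at -0.30. Both positive and negative ends were well short of the 1.64 of OSM34, but OSM34 was chosen for its change, so this comparison tests nothing.

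Of 15 plant defensin genes, 12 had a probe set and 8 were tested; the other 4 were under the filter. All 8 were lower on mock replicate 1 than on mock replicate 2, with a median difference of -0.66. So were 45.6% of all tested probe sets and 87.4% of genes in the shortest length group, to which all 8 belong. The 6 besides PDF1.4 and PDF1.2 had a median change of 0.24, with 5 positive. Of all tested probe sets 47.1% were positive, and of the shortest length group 71.9%. The groups were apart in 0 of the 6, against 18.1% of all tested probe sets with DEX higher and 19.8% with DEX lower. LCR68 (PDF2.3), for example, measured 10.52 and 10.36 in DEX rosettes, against 9.47 and 10.54 in mock rosettes (0.43; SE 0.32; limma adjusted p = 0.772), and LCR69 (PDF2.2) measured 11.86 and 11.66, against 11.03 and 11.73 in mock rosettes (0.39; adjusted p = 0.725).

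PDF1.2b, the close relative of PDF1.2 and named for that after its values were seen, measured 9.63 and 9.50 on the DEX arrays, against 8.69 and 9.73 on the mock arrays. These values lay well above those of PDF1.2, and signal shared between the probe sets was not tested, so they may not be separate readings. The pattern of PDF1.2b was that of PDF1.2: a change of 0.36 (limma adjusted p = 0.822) made by mock replicate 1 alone. Without that array the median of the 6 genes turned to -0.12, with 1 positive, and with the length trend removed it was 0.058, with 3 positive. Of the 8 tested defensins, PDF1.4, chosen for its change, had both DEX arrays above both mock arrays.

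**Figure D4:**
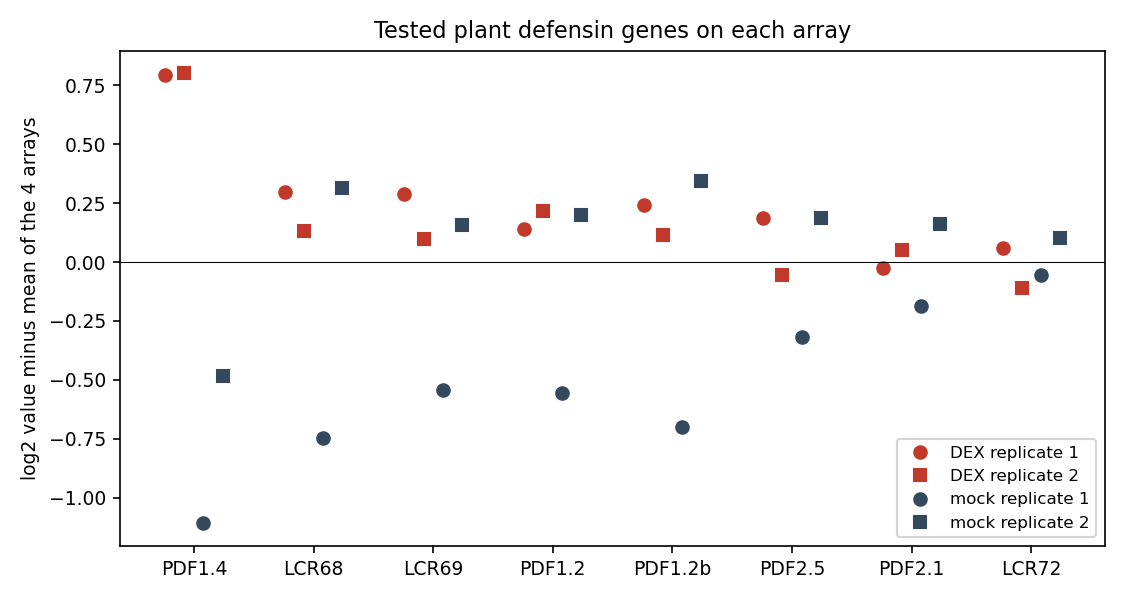
Log2 value minus the mean of the 4 arrays (vertical axis) for the 8 tested plant defensin genes, ordered by their DEX-minus-mock change, with DEX in red, mock in dark blue, circles for replicate 1 and squares for replicate 2. Mock replicate 1 lies below mock replicate 2 in all 8, and PDF1.4 is the gene in which mock replicate 2 also lies below both DEX arrays.

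Of 47 beta-1,3-glucanase family genes, 35 were tested, and the 34 besides AT4G16260 had a median change of -0.073, 14 being positive and 20 negative. AT2G27500 had the highest of these, 7.51 and 7.74 in DEX and 7.28 and 7.22 in mock rosettes (0.38; SE 0.18; limma adjusted p = 0.613), followed by AT4G18340 at 0.36. AT2G05790 had the lowest, 10.34 and 10.48 in DEX and 11.16 and 10.76 in mock rosettes (-0.55; limma adjusted p = 0.477). The genes BGL2 (PR2), BG1 and BG3 of this family, of which PR2 is a salicylic acid marker, were not analysed here.

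Of 72 class III peroxidase genes, 53 had a probe set paired with them alone and 40 were tested. The 39 besides AT5G64120 had a median change of -0.012, with 16 positive and 23 negative. AT2G37130 came closest to AT5G64120, at 8.56 and 8.52 in DEX and 7.79 and 7.76 in mock rosettes, a change of 0.77 (SE 0.18; limma adjusted p = 0.186). Its groups did not overlap and each pair was even, but it did not pass. It passed with the replicate number as a block (adjusted p = 0.0440), without mock replicate 1 (0.0440) and without mock replicate 2 (0.0106), in a range of 0.0106 to 1 over all settings. Prx37 had a change of 0.50 (adjusted p = 0.391) and AT5G51890 of -0.49 (adjusted p = 0.632), whose groups overlapped.

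The peroxidase AT5G64120 lies at the end of a run of 3 neighbouring peroxidase genes. AT5G64110, directly beside it, measured 6.31 and 6.16 in DEX rosettes, against 6.32 and 6.40 in mock rosettes (-0.12; limma adjusted p = 0.881). AT5G64100, the next along, measured 5.70 and 5.43, against 5.27 and 5.26 in mock rosettes (0.31; adjusted p = 0.603). Neither passed, and both changes were far smaller than the 1.54 of AT5G64120, a gene chosen for its change.

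**Figure D5:**
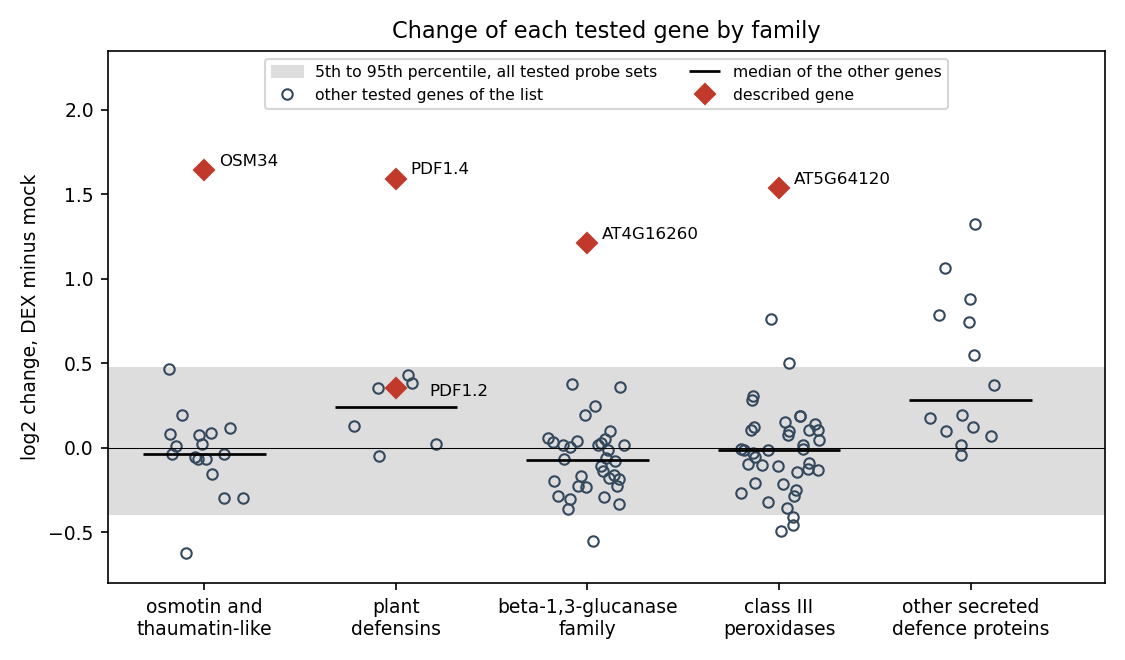
Log2 change, DEX minus mock (vertical axis), of every tested gene of 5 lists, with the described genes as red diamonds, the other genes as open circles, a black line at the median of the others and a grey band from the 5th to the 95th percentile of all tested probe sets (-0.39 to 0.47). OSM34, PDF1.4, AT4G16260 and AT5G64120, chosen for their change, lie above the other genes of their lists, and PDF1.2 lies among the defensins.

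Other genes beside the 5 on the chromosome were looked at in the same way, taking for each the nearest 2 on either side that have a probe set of their own. Of these 20 neighbours 19 were tested and 0 passed by limma, where 0.448% of all tested probe sets did, so that a count of 0 is near the background. Their changes were -0.56 to 0.79 and the smallest adjusted p was 0.466. The largest was that of NRPB9B, a subunit of RNA polymerase next to AT4G16260, at 7.0 and 6.94 in DEX rosettes, against 5.65 and 6.70 in mock rosettes (0.79; adjusted p = 0.481), where mock replicate 1 was again the low array. JMT, the jasmonate methyltransferase gene near PDF1.4, had a change of -0.18 (adjusted p = 0.732). SR, directly before OSM34, measured 6.77 and 6.84 in DEX and 6.52 and 6.81 in mock rosettes (0.14; adjusted p = 0.875).

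A further list held other secreted defence proteins: the PR1 family, chitinases, PR4, thionins, lipid transfer proteins and inhibitors of fungal polygalacturonase. Of its 32 genes 14 were tested; 0 passed by limma (0.448% of all tested probe sets did) and 6 had an unadjusted p under 0.05 (8.78% of all). Of the 14 changes 13 were positive, where 47.1% of all were, with a median of 0.28 beside -0.012 over all tested probe sets. AT4G12490, a lipid transfer-type gene of the AZI1 cluster, measured 7.99 and 8.10 in DEX rosettes, against 6.44 and 7.01 in mock rosettes (1.32; SE 0.22; limma adjusted p = 0.0536). It passed at 0.0472 with a filter at log2 5, at 0.0468 with equal array medians and at 0.0306 with robust empirical Bayes; over all settings its adjusted p ran from 2.69e-07 (replicate number as a block) to 0.0926.

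AT4G12500, directly beside it in that cluster, had a change of 1.06 (SE 0.22; limma adjusted p = 0.114), and signal shared between such close relatives was not tested. The chitinase gene CHI measured 10.69 and 10.75 in DEX rosettes, against 9.90 and 9.78 in mock rosettes (0.88; adjusted p = 0.127), and the chitinase-family gene AT3G47540 had a change of 0.79 (adjusted p = 0.213). With the replicate number as a block AT4G12500 passed at an adjusted p of 1.22e-05 and CHI at 0.0190. Over all settings the adjusted p ran from 1.22e-05 to 0.175 for AT4G12500, from 0.00568 to 1 for CHI and from 0.00669 to 1 for AT3G47540, the lowest of CHI and AT3G47540 without mock replicate 2. In this list too 12 of 14 genes were lower on mock replicate 1, against 45.6% of all tested probe sets. All 14 fall in the 2 shortest length groups, where 87.4% and 68.6% were lower on it and 71.9% and 63.5% had a positive change. Without mock replicate 1, 8 of 14 were positive and the median was 0.14, the same as with the length trend removed (0.14). PR1 itself, the salicylic acid marker, was not analysed here.

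For the regulators upstream of such genes, few had a probe set of their own. WRKY53, a factor tied to senescence and salicylic acid, had a change of 0.64 (SE 0.18; limma adjusted p = 0.249, in a range of 0.0381 without mock replicate 2 to 1 over all settings). EIN3, the ethylene factor that acts upstream of PDF1.2, had a change of -0.33 (adjusted p = 0.767). Of the jasmonate factors of the MYC branch, which acts against the ERF branch that drives PDF1.2, MYC4 fell. It measured 6.59 and 6.49 in DEX rosettes, against 7.95 and 7.64 in mock rosettes (-1.26, SE 0.18, limma adjusted p = 0.0317). The lists were chosen with earlier results of these data known, so the p of MYC4 is a description only. Its call was lost with no intensity trend (adjusted p = 0.0555) and without DEX replicate 2 (adjusted p = 0.0767), in a range of 4.63e-07 to 0.0767 over all settings. MYC3 measured 7.28 and 7.25, against 8.16 and 7.90 in mock rosettes (-0.76; adjusted p = 0.19), and passed with the replicate number as a block (0.0265) and without mock replicate 2 (0.00697), in a range up to 1 over all settings.

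Across all lists, 122 genes besides the 5 were tested; 0 were called higher and 1, MYC4, was called lower, with 0.246% and 0.201% of all tested probe sets called. Their median change was -0.0080. As the lists were chosen with earlier results of these data known, these counts are a description only.

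Genes anywhere on the array whose 4 values most resembled those of each described gene were found by Euclidean distance between log2 values centred on their 4-array mean, leaving out the 5 themselves. This measure picks genes with a like change, so it is a description only. Nearest to OSM34 was AT4G15700, a glutaredoxin gene, at a distance of 0.11 (5.39 and 5.37 in DEX, 3.77 and 3.85 in mock rosettes), then AT2G44380 and AT4G01870 (0.30 each). Nearest to PDF1.4 were AT5G52760 (0.13), the methionine sulfoxide reductase gene MSRB9 (0.15) and AT2G32190 (0.17), all with mock replicate 1 lower than mock replicate 2.

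AT4G16260 was closest to AT5G03350 (0.10), CCOAMT (0.13), a caffeoyl-CoA O-methyltransferase gene, and AT3G13950 (0.16). For AT5G64120 the closest, at larger distances, were AT2G44380 (0.33), UGT76B1 (0.35) and AT4G15700 (0.40), and OSM34, at 0.39, lay nearer than AT4G15700. For PDF1.2 the nearest, AT1G23040, AT3G44280 and MSRB3, lay within 0.054, and all 3 had 3 like values and a low mock replicate 1. Among the described genes, the closest pair was OSM34 and AT5G64120 (0.39), and the other pairs without PDF1.2 were 0.47 to 0.67 apart, against 0.94 to 1.41 for pairs with PDF1.2.

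The rosette label was set against markers of cell types. The 5 mesophyll markers tested of 8 listed (LHCB4.1, LHCB4.2, RCA, PSAN and PSBW) lay at 11.48 to 13.35 in DEX and 11.53 to 13.42 in mock rosettes, high on a scale that ends at 13.62, and 0 passed. Of 4 guard cell markers 2 were tested: FMA had a change of -0.47 (limma adjusted p = 0.511) and AT1G22690 of 0.34 (adjusted p = 0.813; 7.41 on mock replicate 1, 8.36 on mock replicate 2). The root hair expansin EXPA7, the 1 tested of 3 root markers, had 5.72 and 5.95 in DEX and 5.98 and 5.96 in mock rosettes. Trichome, vascular and floral markers were not analysed here, and the part of cell composition in the described changes was not tested.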

How the data were processed

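The deposited table holds log2 expression values, 1 per probe set and array. Per the submitters' processing notes they were made with GCRMA, which corrects background by probe sequence, normalizes by quantiles and combines probes by median polish (version: not given in the sources used here). That the scale is log2 was inferred from GCRMA and the range (2.59 to 13.62, array medians 6.51 to 6.55). GCRMA shrinks differences between dim probe sets.

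Of 22810 probe sets, 64 controls and 2863 under log2 4 on all but at most 1 array were left out. The remaining 19883 were tested with limma 3.58.1 in R 4.3.3 (lmFit, eBayes with an intensity trend), DEX against mock, two-sided, with Benjamini-Hochberg adjustment. With 2 arrays per group, their number limits the precision. Names came from the platform annotation, updated through the RefSeq table of TAIR10.1; 8730 probe sets are unlisted there and 503 have several genes.

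The members and lists were chosen with earlier results of these data known. Named genes were the 5 members, called genes and up to 4 largest changes per list, 3 nearest patterns and 2 neighbours on either side; a gene with several probe sets entered by the highest mean. Promoter motifs and sequences were not analysed here. Alternatives covered the filter, normalization, gene length (loess, span 0.5), variance model, a replicate block and leaving out each array.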

Additional observations from a re-analysis of the deposited data

How the results depend on the processing

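All 4 genes without overlap kept their direction and lay at 1.10 or above in each setting run, their groups being apart, so that leaving out an array could not turn a sign. Quantile normalization and equal array medians could hardly move these changes either, since GCRMA already normalizes by quantiles and the array medians were 6.51 to 6.55. Leaving out 1 array gave 1.62 to 1.67 for OSM34, 1.28 to 1.91 for PDF1.4, 1.10 to 1.33 for AT4G16260, 1.31 to 1.76 for AT5G64120 and -0.024 (without mock replicate 1) to 0.73 for PDF1.2. With the length trend removed, OSM34 was at 1.52, a move larger than its small spread. Over all probe sets, 49 rises and 40 falls became 27 and 24 with no intensity trend, and 80 rises with robust empirical Bayes. With 1 array left out there were 112 to 1803 rises and 50 to 1388 falls, the most without mock replicate 2. With either mock array left out, the spread is that of the DEX pair alone. Without mock replicate 2, the only mock array is mock replicate 1. Why the counts were highest there was not tested. Of the listed genes besides the 5, 0 were called higher and 1 lower; 1 was called higher with a filter at log2 5, equal array medians or robust empirical Bayes, and 0 to 6 were called lower and 1 to 12 higher with 1 array left out. None was called lower with no intensity trend (0).

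The replicate number was also entered as a block. The labels do not say that a number marks a shared batch, and the replicate deviations of the DEX and mock pairs correlated at 0.11 across probe sets, with 2 pairs only. With the block, 438 probe sets were higher and 237 lower, as were 5 and 2 of the listed genes; which fit is nearer the truth was not tested. Family medians without a mock array were added after the data were seen.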
